A study of Homo sapiens with 8 samples.

Results

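Acetylation of histone H3 at lysine 27 (H3K27ac) was examined at 10 genes of the Wnt signalling pathway: the ligand genes WNT5A, WNT5B and WNT7B, the receptor gene FZD7, the inhibitor and feedback genes DKK1 and AXIN2, and the transcription factor genes TCF7, TCF7L1, TCF7L2 and LEF1. These are 10 of 19974 protein-coding genes. A peak was assigned to a gene if it lay in the RefSeq span of the gene or within 50 kb of either side. This rule took 49 of 39797 control peaks and 61 of 42552 knockout peaks. A peak was called shared if it overlapped a peak of the other list by at least 1 bp, and otherwise control-only or knockout-only.

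The study used MDA-MB-231, a long-established human line of triple-negative breast cancer, as control cells (NC in the titles) or with ARID1A knocked out. ARID1A is a subunit of the SWI/SNF (BAF) complex, which moves nucleosomes. The 8 libraries comprised 2 immunoprecipitates and 2 inputs per genotype, and the labels gave no treatment or time. Nor did they state if knockout cells came from 1 clone. Chromatin had been cut with micrococcal nuclease. The sample characteristics named an H3K27ac antibody, whereas the extraction protocol named one to H3K4me3, so the name of the mark rests on the titles and characteristics.

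The authors deposited 1 list of peaks for each genotype. Without replicate values there was no error to set against a contrast, so what follows compares 2 lists and tests nothing. Pileup, the height of overlapping fragments at a peak, and fold, the enrichment over a background estimated from the input, are the authors' values. Over all peaks the median pileup was 22.7 (control) and 32.0 (knockout). Pileups are therefore not compared between lists, and pairs of peaks are printed with the percentile of each in its own list. Depth per library was not given in the sources used here.

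The labelled cell type was checked against markers. All 6 genes typical of this mesenchymal line (VIM, CD44, EGFR, AXL, ANXA1 and MSN) had a peak within 1 kb of a start in both lists. So did 3 of 4 hormone receptor and luminal genes (ESR1, GATA3 and FOXA1, but not PGR) and, of genes of other cell types, SNAP25 and APOA1. Genes of these groups had been listed as ones that should not be acetylated, so these peaks went against the label. Of all protein-coding genes, 63.8% had a start peak in control and 63.7% in knockout, so the check separates cell types poorly. The blood cell genes PTPRC and CD3E and the liver gene ALB had none at a start. A peak at a start is not a measure of expression.

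Wnt ligands are secreted lipid-modified proteins that bind Frizzled receptors. In the canonical branch this stops the destruction of β-catenin, which then enters the nucleus and joins DNA-bound TCF and LEF factors to switch on target genes. Other Wnt ligands, WNT5A and WNT5B among them, act largely without β-catenin and are known for effects on cell movement. H3K27ac marks active promoters and enhancers, so its peaks show where active-type chromatin lay in the windows of these genes. Some of these peaks lay closer to other genes.

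RefSeq promoter windows (GRCh38.p14, 250 bases before to 50 bases after a start) were found for 7 of the 10 genes, 12 windows in all. AXIN2, FZD7 and WNT7B had no entry. The 6 windows below show a start inside peaks of both lists (DKK1, TCF7L2 and TCF7L1), just outside a peak that reaches into the window (TCF7) and far from any peak (WNT5B and WNT5A). Each reads 5′ to 3′ on the strand of the gene, and capitals mark the letters CTTTGAA or CTTTGAT or CTTTGTA or CTTTGTT on either strand, the core to which TCF and LEF factors bind.
DKK1 (chr10:52314031-52314330, plus strand): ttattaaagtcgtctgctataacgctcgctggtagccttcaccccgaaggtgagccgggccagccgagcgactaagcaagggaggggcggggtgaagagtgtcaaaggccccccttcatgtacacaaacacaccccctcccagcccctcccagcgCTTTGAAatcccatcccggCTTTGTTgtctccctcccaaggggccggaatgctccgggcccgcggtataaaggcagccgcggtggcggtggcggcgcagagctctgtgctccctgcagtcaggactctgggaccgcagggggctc
TCF7L2 (chr10:112949997-112950296, plus strand): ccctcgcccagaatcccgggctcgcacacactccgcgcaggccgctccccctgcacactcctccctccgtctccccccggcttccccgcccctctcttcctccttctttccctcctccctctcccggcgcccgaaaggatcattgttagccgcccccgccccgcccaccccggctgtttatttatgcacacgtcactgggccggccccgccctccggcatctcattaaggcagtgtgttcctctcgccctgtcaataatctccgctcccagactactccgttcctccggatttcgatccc
TCF7L1 (chr2:85133142-85133441, plus strand): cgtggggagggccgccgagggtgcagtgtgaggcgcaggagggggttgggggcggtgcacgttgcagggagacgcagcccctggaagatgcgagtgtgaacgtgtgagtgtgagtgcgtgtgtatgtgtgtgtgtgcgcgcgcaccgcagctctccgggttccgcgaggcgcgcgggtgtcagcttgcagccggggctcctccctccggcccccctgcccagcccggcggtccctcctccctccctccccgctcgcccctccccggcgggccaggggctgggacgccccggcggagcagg
TCF7 (chr5:134115363-134115662, plus strand): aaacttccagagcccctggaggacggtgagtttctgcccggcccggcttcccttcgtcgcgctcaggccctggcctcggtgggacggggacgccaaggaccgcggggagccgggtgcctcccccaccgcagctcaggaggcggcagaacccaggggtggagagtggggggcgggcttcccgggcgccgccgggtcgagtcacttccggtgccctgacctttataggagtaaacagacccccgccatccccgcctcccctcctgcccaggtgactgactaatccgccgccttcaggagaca
WNT5B (chr12:1616806-1617105, plus strand): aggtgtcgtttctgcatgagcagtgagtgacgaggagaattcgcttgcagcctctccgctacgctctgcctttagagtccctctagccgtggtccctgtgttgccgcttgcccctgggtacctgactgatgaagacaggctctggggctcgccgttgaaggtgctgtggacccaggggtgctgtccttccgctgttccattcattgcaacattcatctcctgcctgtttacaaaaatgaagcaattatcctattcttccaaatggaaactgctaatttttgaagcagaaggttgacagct
WNT5A (chr3:55487257-55487556, minus strand): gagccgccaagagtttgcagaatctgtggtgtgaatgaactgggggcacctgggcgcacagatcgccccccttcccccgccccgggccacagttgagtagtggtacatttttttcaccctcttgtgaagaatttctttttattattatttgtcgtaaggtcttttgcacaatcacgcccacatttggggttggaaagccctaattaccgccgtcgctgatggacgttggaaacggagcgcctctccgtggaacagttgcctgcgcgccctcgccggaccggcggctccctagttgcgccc

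The DKK1 window held 2 such matches, CTTTGAA starting 95 bases and CTTTGTT starting 76 bases before the start. No other printed window held one. Of all 12 windows, 3 did: DKK1, a second start of TCF7 and a second start of TCF7L2, against 13.8% of 35116 promoters of the same length. The AP-1 letters TGAGTCA and TGACTCA, on either strand, were in 0 of the 12 windows (4.95% of all promoters). The TEAD letters GGAATG, on either strand, were in 1, that of DKK1 (14.0% of all promoters). The windows lying wholly in peaks of both lists had a GC content of 63.7% (DKK1), 65.7% (TCF7L2) and 74.3% (TCF7L1). The 2 windows of WNT5B, outside any peak, had 51.7% and 52%, and those of WNT5A 56.3% and 63.7%, so the ranges touched. The median over all promoters was 58.7%.

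Acetylation at the Wnt genes was mostly common to both genotypes, and more of the unmatched peaks were in the knockout list. Of the 49 control peaks, 42 were shared and 7 were control-only, that is 14.3% (95% interval 5.94 to 27.2, exact binomial). Over all control peaks 18.0% were control-only, and within 50 kb of any protein-coding gene 17.3%. Of the 61 knockout peaks, 42 were shared and 19 were knockout-only, that is 31.1% (19.9 to 44.3), against 22.4% of all knockout peaks and 19.8% of those within 50 kb of a protein-coding gene. Each of the background shares 18.0%, 17.3% and 22.4% lay inside the members' interval, and 19.8% lay just below it. The intervals cover counting error only, and neighbouring peaks of a gene are not independent. Of the 19 knockout-only peaks, 6 were at WNT7B. Without that gene, a choice made after seeing the data, 13 of 47 were knockout-only (27.7%, 15.6 to 42.6).

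**Figure D1:**
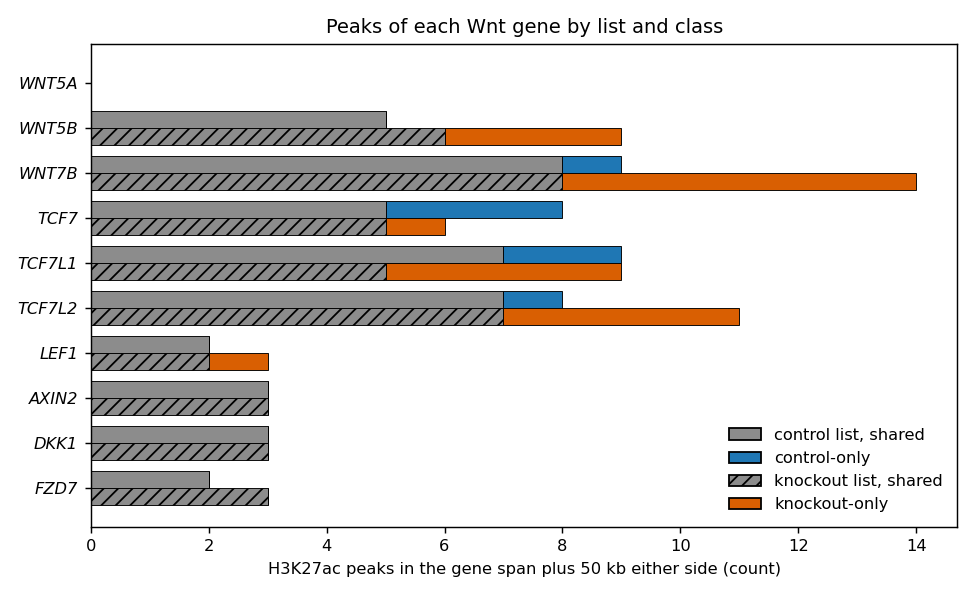
Number of H3K27ac peaks (x axis) in the span plus 50 kb of each gene (y axis), as 1 bar per list divided into shared and genotype-only peaks. WNT5A has none, AXIN2, DKK1 and FZD7 have shared peaks alone, and WNT7B has the most knockout-only peaks (6).

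Control-only peaks occurred at 4 of the 10 genes: TCF7 (3), TCF7L1 (2), TCF7L2 (1) and WNT7B (1). At least 1 such peak was found at 42.3% of all protein-coding genes in the same window. Knockout-only peaks occurred at 6 of the 10: WNT7B (6), TCF7L1 (4), TCF7L2 (4), WNT5B (3), LEF1 (1) and TCF7 (1), against 38.4% of all genes. Longer genes have wider windows, and 3 of the 4 genes with the most knockout-only peaks have spans of 56.8 kb or more. Of the unmatched peaks, 0 control-only and 2 knockout-only stood in the upper 50% of their own list by fold. Both of the latter were at WNT7B. The share over all peaks by fold is not given here.

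The unmatched peaks were short and low, as unmatched peaks were over the whole lists. The 7 control-only peaks had a median length of 943 bp and pileups of 7.93 to 13.9, with none above percentile 26.7 of the control list (0 of 49 control peaks were control-only and in the upper 50%, against 0.754% of all control peaks). The 19 knockout-only peaks had a median length of 710 bp and pileups of 10.9 to 46.8, and 1 of them stood in the upper 50% of the knockout list (1 of 61, against 1.58% of all knockout peaks). Over the whole lists the median lengths were 673 bp for control-only and 765 bp for knockout-only peaks, so the members' control-only peaks were the longer and their knockout-only peaks the shorter. Over all genotype-only peaks, 4.19% of control-only and 7.06% of knockout-only peaks stood that high. Shared peaks of the members had median lengths of 1698.5 bp in control and 1926.5 bp in knockout, and 20 of 42 and 26 of 42 stood in the upper 50% of their lists.

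**Figure D2:**
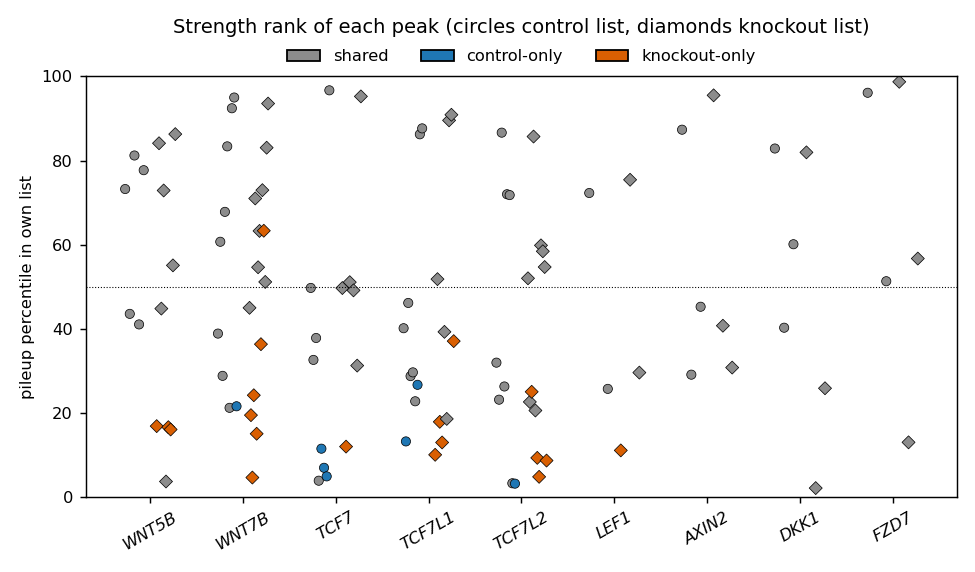
Percentile of each peak by pileup within its own list (y axis), for the 9 genes with peaks (x axis), with circles for the control list, diamonds for the knockout list, and a dotted line at percentile 50. All blue control-only circles lie at or below percentile 26.7, and 1 orange knockout-only diamond, at WNT7B, lies above the line at 63.3.

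Among the ligand genes, WNT7B differed most in its peaks between the lists. WNT7B (chr22:45920366-45977162) encodes a ligand that can act through β-catenin. The control list had 9 peaks of 11.9 kb in sum and the knockout list 14 peaks of 22.6 kb, a ratio of 1.89. A ratio as high was found at 4.43% of the 17129 protein-coding genes with peaks in both lists. WNT7B was singled out after its values had been seen.

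The knockout-only peak with the highest pileup among all 10 genes lay at chr22:45996173-45998311, 19.0 kb beyond the higher-coordinate end of WNT7B. It was 2139 bp long, with a pileup of 46.8 (percentile 63.3) and a fold of 13.1, and the nearest control peak was 4200 bp away. A second, of 2458 bp, covered that gene end itself (chr22:45974737-45977194, pileup 23.1, percentile 36.3, fold 5.37). From general knowledge, and not from the tables used here, WNT7B is read from that end, so this is its start. No control peak overlapped it, but one of 626 bp lay 1429 bp away (pileup 53.7, percentile 83.4). That control peak was shared with a knockout peak of 956 bp (62.5, percentile 73.0). With windows of 2 kb around starts in place of 1 kb, WNT7B counted as having a peak at a start in both lists.

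The other 4 knockout-only peaks of WNT7B were weaker, with pileups of 10.9 to 17.8 and lengths of 563 to 912 bp. Of these, 1 lay inside the gene and 3 lay below its lower-coordinate end, the nearest at chr22:45918784-45919695, 671 bp from the gene. The single control-only peak (chr22:46023418-46023759, 342 bp, pileup 12.5) lay 46.3 kb beyond the higher end.

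Of the 8 sites of WNT7B with shared peaks, the knockout peak was the longer at 6. Inside the gene, a control peak of 1236 bp (pileup 35.7, percentile 67.8) matched a knockout peak of 3496 bp (46.7, percentile 63.3) at chr22:45967187-45970682. A control peak of 276 bp (14.4, percentile 28.8) matched a knockout peak of 935 bp (36.3, percentile 54.6). The strongest shared peak had nearly the same length in both, 2223 bp in control (81.6) and 2179 bp in knockout (125, percentile 93.6). It lay 35.7 kb beyond the gene, at a start of LOC124905134.

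With −log10 q of at least 5 in both lists, WNT7B had 4 knockout-only peaks, 3 of the 6 above and 1 whose control partner did not reach that q, and 0 control-only peaks. Over all protein-coding genes, 0.716% had 6 or more knockout-only peaks, and 0.911% had an excess of 5 or more over control-only peaks.

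**Figure D3:**
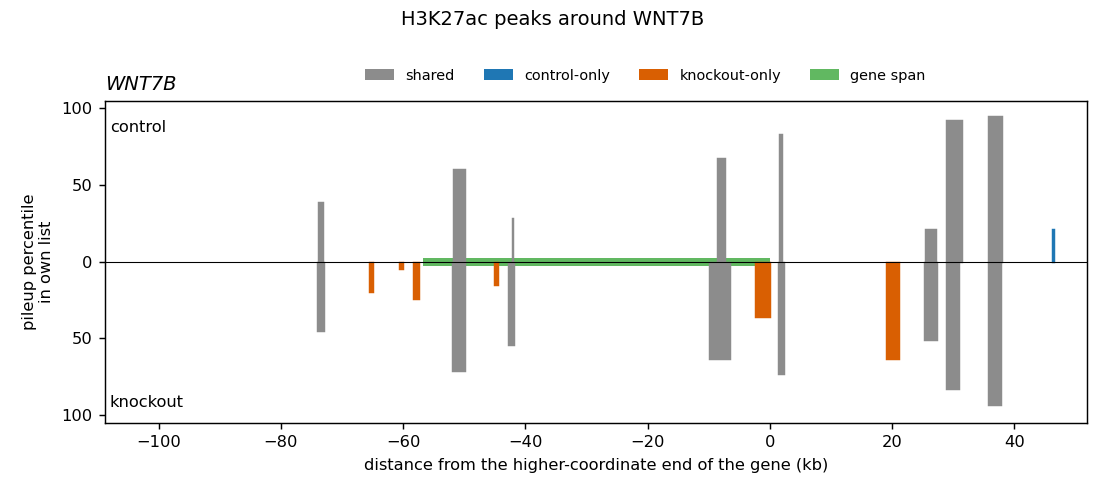
Peaks around WNT7B by distance from the higher-coordinate end of the gene in kb (x axis), with height giving the pileup percentile in the own list (control upward, knockout downward) and the gene span in green. Orange knockout-only peaks stand at the gene end (percentile 36.3) and 19.0 kb beyond it (63.3), with no control peak opposite.

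WNT5B (chr12:1617056-1647212) encodes a ligand close in sequence to WNT5A. Neither list had a peak within 1 kb of either of its RefSeq starts. All 5 control peaks of the window lay outside the gene, and the only peak inside it was knockout-only, 344 bp long, with a pileup of 15.0 (percentile 16.0) and 3253 bp from the nearest start. The strongest acetylation with WNT5B as the closest protein-coding gene lay upstream. There a single control peak of 4166 bp (chr12:1604981-1609146, pileup 50.6, percentile 81.2) faced 2 knockout peaks of 1777 bp (62.3, percentile 72.9) and 369 bp (10.4, percentile 3.65). The other 2 knockout-only peaks were 656 bp (pileup 15.1) and 376 bp (15.2) long, the former 4758 bp upstream of the gene. In the knockout list the highest peaks of the window were nearer to the neighbours ADIPOR2 (pileup 94.5) and FBXL14 (87.8). With −log10 q of at least 5 no unmatched peak of WNT5B remained.

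WNT5A (chr3:55465715-55505263) had no peak in either list, in the span plus 50 kb or plus 100 kb. Of all protein-coding genes, 11.0% had no peak in span plus 50 kb in either list. The nearest knockout peak lay 103 kb away and the nearest control peak 620 kb away. What the depth would have allowed to be seen there is unknown.

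FZD7 (chr2:202033855-202038441), a short gene for a Frizzled receptor, had at its lower-coordinate end, from general knowledge its start, the peak with the highest percentile of all 61 member peaks in knockout. This peak was 3259 bp long in control (pileup 87.2, percentile 96.1) and 3246 bp in knockout (182, percentile 98.7). The second control peak (chr2:202036895-202039846, 2952 bp, pileup 23.5, percentile 51.3) covered the other end. It faced 2 knockout peaks, of 439 bp (14.0, percentile 13.0) and 1636 bp (38.5, percentile 56.7). FZD7 thus had no unmatched peak, and its peaks summed to 6.21 kb in control and 5.32 kb in knockout.

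DKK1 (chr10:52314281-52317657) had less acetylated length in the knockout list, with no unmatched peak. It encodes a secreted inhibitor that binds the LRP co-receptors and is itself a target of β-catenin. Its 3 control peaks summed to 20.6 kb and its 3 knockout peaks to 13.4 kb, a ratio of 0.652. A ratio as low was found at 10.8% of the genes with peaks in both lists, but DKK1 was picked as the lowest member after its values had been seen.

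The peak over the gene, which holds the promoter window with the 2 TCF/LEF matches, was 13479 bp long in control (chr10:52308357-52321835, pileup 53.0, percentile 82.9). In knockout it was 9335 bp long (chr10:52312277-52321611, pileup 82.0, percentile 81.9) and lay wholly inside the control peak. The control peak reached further on the upstream side, whereas the downstream edges nearly coincided. Downstream of the gene, control peaks of 1466 bp (pileup 18.2, percentile 40.2) and 5657 bp (29.2, percentile 60.1) faced knockout peaks of 299 bp (9.65, percentile 2.09) and 3794 bp (18.4, percentile 25.8). At all 3 sites the knockout peak lay within the control peak. The peak over DKK1 was, in both lists, also within 1 kb of a start of PRKG1-AS1. With −log10 q of at least 5 the 299 bp knockout peak was lost, and its control partner became control-only.

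AXIN2 (chr17:65528563-65561648), a scaffold of the β-catenin destruction complex and a widely used target gene of the pathway, had 3 shared peaks in each list. The peak at its higher-coordinate end, from general knowledge the start, was 2248 bp long in control (pileup 60.2, percentile 87.3) and 2208 bp in knockout (139, percentile 95.5). A peak 1947 bp beyond that end was 456 bp long in control (14.5, percentile 29.1) and 409 bp in knockout (25.5, percentile 40.7), and both began at the same base. The third lay 41.4 kb away, nearer to CEP112, and was 1781 bp long in control (20.3, percentile 45.2) and 1161 bp in knockout (20.4, percentile 30.8). The summed lengths were 4.49 kb and 3.78 kb.

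The TCF and LEF genes encode DNA-binding partners of β-catenin. All 4 had a peak within 1 kb of a start in both lists. TCF7L2 (chr10:112950247-113167678) had the most acetylated length of the 10 genes and nearly the same in both lists, 30.7 kb in control and 30.8 kb in knockout. Its span of 217 kb was also the longest of the 10, so its window was the widest. Its start lay in a peak of 11012 bp in control (chr10:112948766-112959777, pileup 58.9, percentile 86.6) and of 11285 bp in knockout (92.7, percentile 85.7). In both lists this peak was also within 1 kb of a start of LOC124902502.

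Within TCF7L2 the partition of that length differed. Just downstream of the start peak, a control peak of 6317 bp (pileup 13.8, percentile 26.3) faced a knockout peak of 1463 bp (16.5, percentile 20.5). Further into the gene, near chr10:113092049-113095121, the order was the other way, with 1020 bp in control (7.97, percentile 3.24) and 3073 bp in knockout (36.4, percentile 54.7). Between them lay 2 broad peaks of similar length in both lists: 6340 bp in control and 5929 bp in knockout, and 3363 bp and 3252 bp. The 4 knockout-only peaks were 462 to 922 bp long with pileups of 10.9 to 18.1, 3 of them inside the gene. The control-only peak was 955 bp long (pileup 7.93) and lay 1142 bp from a knockout peak.

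TCF7L1 (chr2:85133392-85310387), known mostly as a repressor of Wnt targets, had 9 peaks in each list, of 13.7 kb in control and 20.0 kb in knockout. Its start peak was 1139 bp long in control (pileup 18.1, percentile 40.1) and 1537 bp in knockout (33.6, percentile 51.8). Towards the 3′ end of the gene, a knockout peak of 7387 bp (chr2:85287992-85295378, pileup 24.7, percentile 39.3) covered 3 separate control peaks of 876, 597 and 1184 bp (pileups 20.7, 14.4 and 14.7, percentiles 46.1, 28.7 and 29.6). That stretch accounted for most of the difference in length.

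The 4 knockout-only peaks of TCF7L1 were 428 to 900 bp long, and 2 lay inside the gene. The 2 control-only peaks were 943 bp long inside the gene (pileup 10.51) and 1878 bp long in the neighbour TGOLN2 (13.9). The strongest peaks of the window stood at starts of TGOLN2 and of ELMOD3 and RETSAT, and both were shared.

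TCF7 (chr5:134108218-134148210) was the member with the most control-only peaks. All 3 lay inside the gene, in its part towards the 3′ end, with lengths of 1127, 687 and 264 bp and pileups of 10.1, 9.0 and 8.44, at percentiles 11.5, 6.92 and 4.88. Such a number or more was found at 5.84% of all protein-coding genes, but TCF7 was picked as the highest member after its values had been seen. None of the 3 control-only peaks passed a −log10 q of 5. With that threshold the only unmatched peak of TCF7 was a knockout peak of 1717 bp (pileup 20.6, percentile 31.2), whose control partner (8.15, percentile 3.85) also fell below it.

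The start peak of TCF7 was 1197 bp long in control (pileup 15.6, percentile 32.6) and 1272 bp in knockout (32.9, percentile 51.1). It ended before the start, in the printed promoter window, of which 5 bases lay in the control peak and 73 in the knockout peak. The RefSeq span of VDAC1 also covers this site. Peaks of 1616 bp in control (17.3, percentile 37.8) and 1900 bp in knockout (31.3, percentile 49.1) lay just downstream of the second start. The strongest peak of the window, 4212 bp in control (90.5, percentile 96.7) and 3850 bp in knockout (137, percentile 95.3), was at the start of SKP1.

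**Figure D4:**
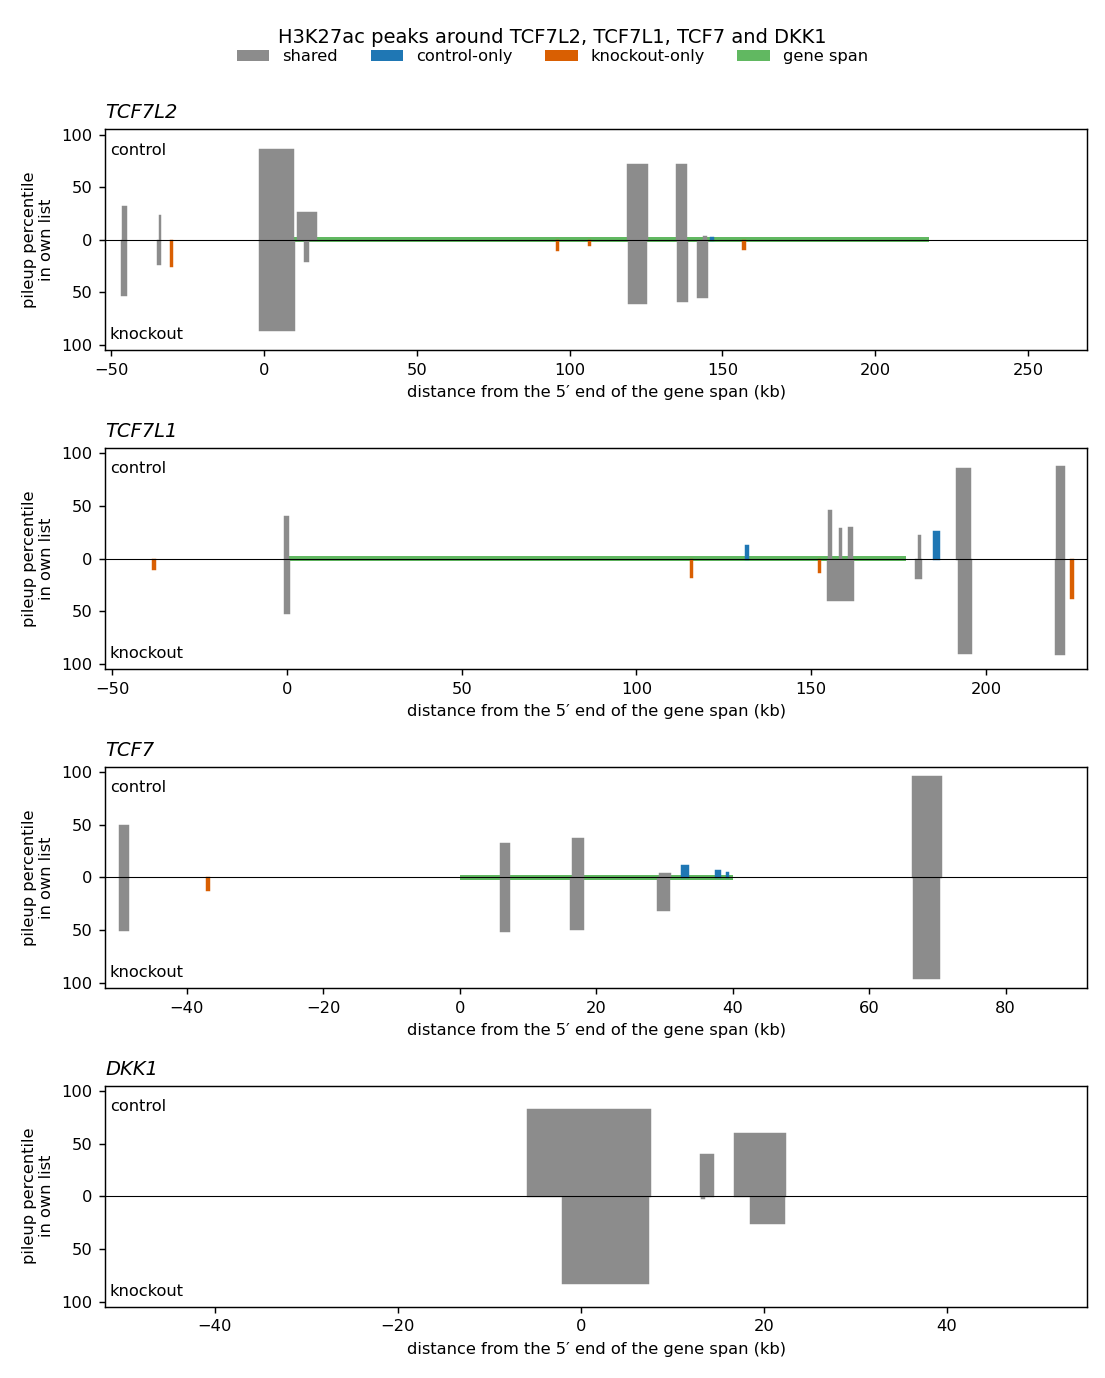
Peaks around TCF7L2, TCF7L1, TCF7 and DKK1 by distance from the 5′ end of the gene span in kb (x axis), with height giving the pileup percentile in the own list (control upward, knockout downward) and the gene span in green (behind the peak at DKK1). The start peak of TCF7L2 is nearly mirror-symmetric (11012 and 11285 bp), the long knockout peak of TCF7L1 stands below 3 control peaks, and the DKK1 peak is shorter in knockout (9335 against 13479 bp).

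LEF1 (chr4:108047548-108168932) had a peak at the 5′ end of its span in both lists, 1956 bp long in control (pileup 40.0, percentile 72.3) and 2092 bp in knockout (67.3, percentile 75.4). In both lists this peak was also within 1 kb of a start of LOC124900752. The window of LEF1 in the promoter table, at a start further into the gene, lay outside the peak in both lists. A second shared peak stood at a start of its antisense gene LEF1-AS1, with 979 bp in control (13.6, percentile 25.7) and 968 bp in knockout (19.9, percentile 29.6). The only unmatched peak was knockout-only, 395 bp long (pileup 13.3), and closer to HADH. No peak lay in the rest of the gene in either list.

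Acetylated length differed in both directions among the members. The 10 genes had a ratio of knockout to control length with a median of 0.954 over the 9 with peaks, from 0.652 at DKK1 to 1.89 at WNT7B. These ratios depended on the window and on weak peaks. Within 10 kb of the gene the ratio was 3.11 at WNT7B (4.08 kb in control and 12.7 kb in knockout) and 0.645 at DKK1, and WNT5B had the lowest, 0.329 (4.17 kb and 1.37 kb), since its knockout peak of 1777 bp lay 10140 bp away, just outside that window. With −log10 q of at least 5 the ratio of TCF7 turned from 0.875 to 1.20. That of TCF7L2, 1.002, was 0.934 within 10 kb and 0.943 with this q. Over all 17129 genes with peaks in both lists the median was 0.939, with quartiles of 0.777 and 1.137. The shared peaks formed 40 regions, of which control peaks were the longer in 19 and knockout peaks in 21. Over all 31981 shared regions control peaks were the longer in 49.3%.

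**Figure D5:**
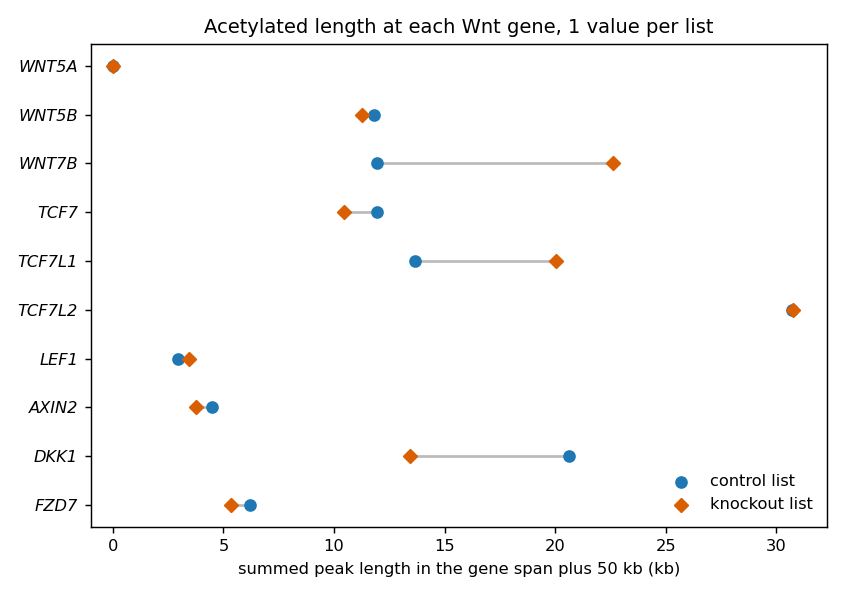
Summed peak length in kb (x axis) in the span plus 50 kb of each gene (y axis), with a circle for the control list and a diamond for the knockout list. The points lie far apart for WNT7B (11.9 and 22.6 kb), TCF7L1 (13.7 and 20.0) and DKK1 (20.6 and 13.4), and nearly coincide for TCF7L2.

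At gene starts the lists differed at 1 member. A peak within 1 kb of a start (of either gene end for AXIN2, FZD7 and WNT7B) was present for 7 of 10 genes in control and 8 of 10 in knockout, the difference being WNT7B. The share was 63.8% and 63.7% of all protein-coding genes, and WNT5A and WNT5B had one in neither list, as did 34.7% of all genes. Over all genes, 62.2% had a peak at a start in both lists, 1.65% in control alone and 1.53% in knockout alone. All 8 control peaks at a member start and 9 of the 11 knockout peaks there were shared, and the other 2 were at the ends of WNT7B.

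Some peaks in these windows lay closer to other genes. The member was the closest protein-coding gene for 36 of 49 control peaks and 45 of 61 knockout peaks. Away from the members' own starts, 7 control and 8 knockout peaks stood within 1 kb of a start of another gene (for ADIPOR2, of a gene end). With peaks at the members' own starts included, the counts were 10 of 49 and 11 of 61. With only peaks closest to the member, 5 control-only and 14 knockout-only peaks remained.

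Across a wider list of 88 other Wnt pathway genes, peaks at starts were about as frequent as over all genes. A peak at a start was present in both lists for 56 (63.6%), in knockout alone for 4, in control alone for 0 and in neither list for 28. Over all protein-coding genes the shares were 62.2% in both lists, 1.53% in knockout alone, 1.65% in control alone and 34.7% in neither. All 14 transducers and destruction complex genes, such as APC, AXIN1 and GSK3B, and 14 of 18 receptors and co-receptors had a start peak in both lists. It was present in both for 6 of 16 ligand genes, 6 of 16 inhibitor genes and 0 of 5 agonist genes (the R-spondins and NDP). The 4 genes in knockout alone were the ligand genes WNT2 and WNT3, the co-repressor gene TLE2 and the secreted factor gene CCN4. Their peaks were 751 to 1207 bp long, with pileups of 17.5 to 28.1 and none above percentile 44.8. The WNT2 peak was shared with a control peak further from the start, and for CCN4, which has no promoter entry, the peak was at a gene end that need not be its start.

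More knockout-only than control-only peaks in span plus 50 kb were found at 34 of the 88 genes (38.6%), against 25.6% of all protein-coding genes. The reverse was found at 15 (17.05%), against 29.8%. The list held 41 control-only and 66 knockout-only peaks, each counted once. Counted by gene the knockout-only peaks were 72, since neighbouring genes can hold the same peak, and this also affects the counts of genes. Over the whole lists, 7155 of 39797 control peaks (18.0%) and 9526 of 42552 knockout peaks (22.4%) were unmatched. Knockout-only peaks were thus the more frequent there too, and no share of the wider list's own peaks is given here. The median ratio of knockout to control length was 1.01 over the 78 with peaks in both lists. These shares describe the list, which was chosen with earlier results of these data known, and were not tested.

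The most knockout-only peaks in excess were at KREMEN1, a receptor for Dickkopf proteins (4 knockout-only and 0 control-only), and CD44, a hyaluronan receptor (4 and 0). Next came WLS, which carries Wnt ligands to the cell surface (3 and 0), ROR1, a receptor for WNT5A (4 and 1), and ZNRF3, a ligase that removes Frizzled (3 and 0). An excess of 2 was found at 7 genes, of which CTNNB1, which encodes β-catenin (2 and 0), had the most length in unmatched peaks. KREMEN1 and ZNRF3 are neighbours whose windows overlap. The genes with an excess of 2 include the neighbours WNT6 and WNT10A, whose overlapping windows gave the same peak counts and lengths, so their peaks were counted at both. At WLS the peaks summed to 6.24 kb in control and 16.4 kb in knockout, and at CTNNB1 to 5.46 kb and 11.6 kb. These genes were picked as the extremes of the list. The share of all protein-coding genes with such an excess or such lengths is not given here. Their windows can also hold peaks that lie closer to other genes.

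Control-only peaks were most in excess at CCND1, which encodes cyclin D1 (4 control-only and 0 knockout-only), the kinase gene GSK3A (3 and 0), the casein kinase gene CSNK1E (2 and 0) and CCN5 (2 and 0). An excess of 1 was found at 11 genes, of which the co-activator gene BCL9L (2 and 1) and FRZB, a secreted Frizzled-related inhibitor (1 and 0), had the most length in unmatched peaks. At GSK3A the lengths were 53.9 kb in control and 33.9 kb in knockout, and at CSNK1E 41.2 kb and 26.4 kb. These genes too were picked as extremes, and their windows can hold peaks closer to other genes. Of all protein-coding genes, 5.84% had 3 or more control-only peaks.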

How the data were processed

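H3K27ac was profiled by chromatin immunoprecipitation and sequencing in 8 libraries. The submitters' processing notes name Bowtie2 2.3.5.1, MACS2 2.2.6 and hg38. Sources used here give neither the options nor whether replicates were pooled. The deposited pileup (a coverage signal), −log10 q-value and fold enrichment (a ratio) of each peak are the authors' values, per the file headers, and were used unchanged. Each list's group was read from the genotype in its name.

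Peaks on chromosomes 1 to 22 and X were kept (6 control and 8 knockout peaks on other sequences were left out). Peaks were classed with Python 3.11.15 (pandas 2.3.3, numpy 2.4.6). The number of unmatched peaks in each list equalled that from bedtools 2.31.1, and the code was tested on simulated lists. Gene spans and starts came from RefSeq on GRCh38.p14, the assembly of hg38. Of 19974 protein-coding genes, 15813 had a start in the promoter table, to which the 5′ end of the span was added. For the others both gene ends were used. Intervals are exact binomial (Clopper-Pearson, 95%) from scipy 1.17.1, and figures were drawn with matplotlib 3.10.9. No genome sequence was used, so peaks were not searched for motifs.

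No test of the genotype was run, since each genotype had 1 list. Named were all 10 members, with start peaks, widest and highest peaks and unmatched peaks in the upper 50% by pileup. Of the wider list, the 6 genes with most and the 6 with fewest knockout-only minus control-only peaks were named (ties by summed length of those peaks), with those having a start peak in 1 list. The members and lists were chosen with earlier results of these data known. Of the marker genes, 1 is not reported here.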

Additional observations from a re-analysis of the deposited data

How the results depend on the processing

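The excess of knockout-only over control-only peaks at the members (12) kept its direction under each of the 7 alternatives of overlap, threshold and window, but its size depended on weak peaks. With −log10 q of at least 5, 1 control-only peak (at 1 member) and 7 knockout-only peaks were left, a difference of 6. Of these, 0 control-only and 4 knockout-only peaks were unmatched before, and the others had lost a partner below that q. In another setting, peaks were classed against the whole other list, and only the upper 50% of their own list by fold were then kept. This left 0 control-only peaks (at 0 members) and 2 knockout-only peaks (at 1 member), a difference of 2. There 20 control and 26 knockout peaks were shared. With a window of 10 kb, 12 knockout-only peaks were left, a difference of 6, and 26 control and 25 knockout peaks were shared. Shares over all peaks at these settings are not given here. At the main setting, 22.4% of all knockout peaks and 18.0% of all control peaks were unmatched. The direction of the excess is thus not particular to the members. At TCF7 the difference of -2 turned to 1 with −log10 q of at least 5. No paired analysis was possible because each genotype had 1 peak list with no value by replicate, and for the same reason no replicate could be left out. What depth limits is unknown, since the sources used here give no read numbers.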

Other observations

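WNT5A lay in a long stretch without a control peak, which was looked at after its values had been seen. On chromosome 3 no control peak was listed between 53892619 and 56125643, a gap of 2.23 Mb that 4 protein-coding genes touch: CACNA2D3, LRTM1, WNT5A and ERC2. Of 39774 gaps between neighbouring control peaks, 75 were as long or longer (0.189%). How many of those gaps hold knockout peaks was not counted. The knockout list had 6 peaks in the same stretch, of 16.4 kb in sum, all between CACNA2D3 and WNT5A. All 6 are unmatched by the definition of the stretch, which holds no control peak. The 2 widest were 6033 bp (chr3:55142890-55148922, pileup 72.5, percentile 77.9, fold 14.7) and 7990 bp long (chr3:55155527-55163516, pileup 65.4, percentile 74.5, fold 9.47), 317 kb and 302 kb from WNT5A. The nearest to the gene, at 103 kb, was 475 bp long with a pileup of 14.5. These peaks lie outside the windows of the report, and no value ties them to WNT5A.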
